A study of Mus musculus with 10 samples.

Results

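A set of 9 smooth muscle and pericyte genes of blood vessel walls, here called the mural genes, were followed across mouse quadriceps libraries. They are Acta2, Myh11, Tagln, Cnn1 and Smtn, which belong to the contractile apparatus of smooth muscle, and Rgs5, Pdgfrb, Cspg4 and Mcam, which are used to mark pericytes and other mural cells. They were chosen by symbol, with the transcript of the largest total kept where a symbol had several, and 9 of 9 were found among 24063 gene symbols. All 9 had enough reads to be tested, from 52 counts (Cnn1 in 1C-MIM 3) to 3303 counts (Acta2 in Control 1) in a library.

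The 1C-MIM group held 5 wild-type C57BL mice whose drinking water carried a supplement named 1C-MIM (composition not given in the sources used here) for 1 to 3 months, and the Control group held 5 wild-type C57BL mice on the plain facility water.  Mice of both groups were 17 to 20 months old, and in both a tibialis anterior muscle had been injured while the sequenced quadriceps had not. RNA came from whole muscle, with 1 library per animal, and the comparison asks which quadriceps transcripts differ with the supplement.

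Vessel walls hold smooth muscle cells around arteries and veins and pericytes along capillaries, and both rest on the endothelium. Smooth muscle cells contract through smooth muscle actin and myosin, and the transcription factor SRF with its partner myocardin switches on many of their contractile genes at DNA sites called CArG boxes. Endothelial cells secrete PDGF-B, which recruits pericytes through the receptor PDGFRB. Acta2, Tagln and Cnn1 are also made by myofibroblasts, the matrix-producing cells of healing tissue, so they do not mark vessels alone.

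With 1 transcript kept per symbol, the libraries held 28521254 to 31771296 counts. Over all transcripts the deposited counts came to 52899728 (Control 1) to 58399817 (1C-MIM 3). Expression is given in CPM, the read count relative to library size after TMM scaling, which compares a gene between libraries but not genes of different length with each other. The tissue label fitted its markers, since 10 genes of skeletal fibres summed to 241700 to 274500 CPM in 1C-MIM and 225000 to 254000 CPM in Control. The 9 mural genes summed to 379 to 494 CPM in 1C-MIM and 362 to 430 CPM in Control. Control 5 stood apart in one respect. Its deviations from the mean of all libraries fell by 0.145 on the log2 scale per doubling of transcript length, while the other libraries lay between -0.0487 (Control 4) and 0.121 (1C-MIM 2). These slopes also differed by group. All Controls had negative slopes, up to -0.0128 (Control 2), and of the 1C-MIM libraries only 1C-MIM 1 did (-0.0262). The trend with length is thus largely aligned with the comparison of the groups.

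Rgs5 and Cspg4 were called higher and Smtn lower in supplemented muscle, and the other 6 genes did not pass the test. Rgs5 was 1.67-fold higher in 1C-MIM than in Control, Cspg4 was 1.31-fold higher, and Smtn was at 0.851 of its Control level. Of the 9 genes, 2 were thus called higher and 1 lower by edgeR's quasi-likelihood test, at a threshold of 0.05 on p-values adjusted by the Benjamini-Hochberg method across 13880 genes. Among all tested genes 9.78% were called higher and 11.8% lower, together 21.6%, so 3 of 9 is not far from the background. A log2 fold change above 0 was found for 5 of the 9, beside 50.1% of all tested genes. Their median log2 fold change was 0.03, beside 0.0009 over all tested genes. Each of the calls of Rgs5, Cspg4 and Smtn was lost when certain single libraries were left out. With each library's trend on transcript length removed, 0 members were called higher and 1, Smtn, lower. In a bulk sample, fewer cells of a type and less RNA per cell cannot be told apart.

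**Figure D1:**
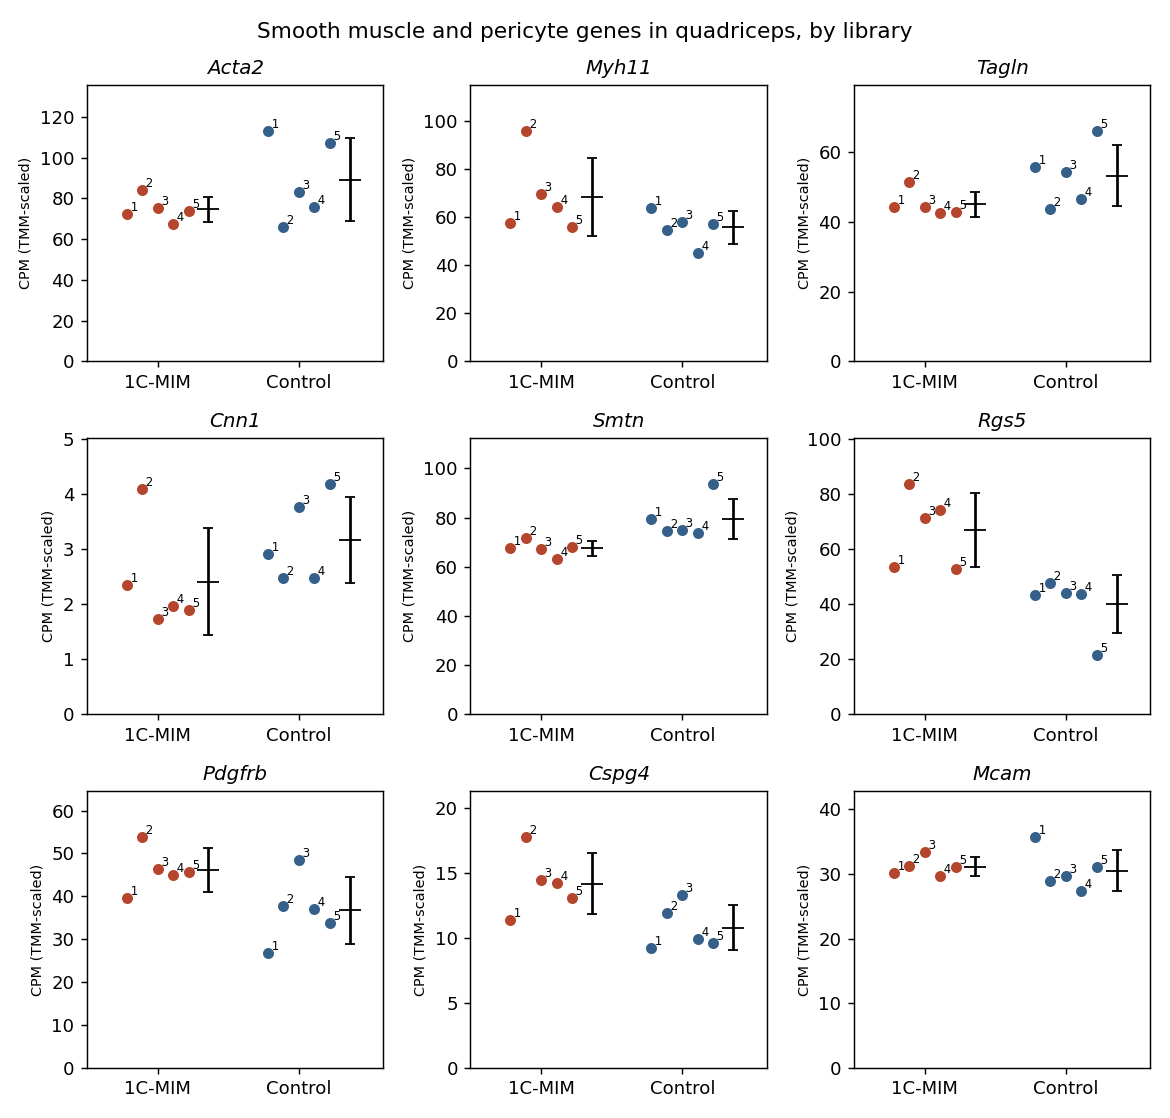
CPM (TMM-scaled) of each mural gene in every library, with 1C-MIM on the left and Control on the right of each panel. Digits are replicate numbers, and the black bar beside each group is its mean ± SD (n = 5). The groups do not overlap for Rgs5 and Smtn, 1C-MIM 2 is the highest 1C-MIM library in 8 of 9 panels, and Control 5 lies far below the other Controls for Rgs5.

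Acta2 encodes smooth muscle alpha-actin, the main thin-filament protein of vascular smooth muscle. It had 72.4, 84.3, 75.3, 67.6 and 74.0 CPM in 1C-MIM 1 to 5, and 113.1, 66.0, 83.0, 75.8 and 107.4 CPM in Control 1 to 5. Control 1 and Control 5 stood above every other library, while the other Controls lay within or close to the 1C-MIM range. This gave a log2 fold change of -0.25 (SE 0.13, 95% confidence interval -0.54 to 0.03, edgeR adjusted p = 0.179), and without Control 1 and Control 5 it was -0.0051. Without Control 2, the lowest Control, the gene passed the test (-0.34, edgeR adjusted p = 0.0444). Skeletal alpha-actin, Acta1, which encodes a near-identical protein, had 274 to 498 times the counts of Acta2 in the same libraries. How reads that fit both actins were counted is not known. The part of such reads in the Acta2 counts was not tested.

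The promoter table from RefSeq (build GRCm38.p6) gave a window for 6 of the 9 genes. Myh11, Tagln and Pdgfrb had none, so the search does not cover them. The 250 bases before the transcript start were searched for CCNNNNNNGG with at most 1 C or G among the 6 middle bases. The pattern reads the same on both strands, and covers the CArG box and its forms with 1 mismatch in the middle bases. Forms with a mismatch in the outer CC or GG were not counted, in the members or in the other symbols. The Acta2 window held 2 such matches, both with 1 mismatch, at 84 to 75 and at 34 to 25 bases before the start, and the windows of Cnn1, Smtn, Rgs5, Cspg4 and Mcam held 0. Of 27025 symbols with a window, 9.78% held at least 1 match and 0.759% held 2 or more. A strict CArG box was in 1.62% of them and in 0 of the 6 members. The Acta2 window is shown with its matches in capitals, beside Smtn, which varied with Acta2 between libraries, and Rgs5, which did not. A link between matches and this variation was not tested.
Acta2 (chr19:34255374-34255623, minus strand): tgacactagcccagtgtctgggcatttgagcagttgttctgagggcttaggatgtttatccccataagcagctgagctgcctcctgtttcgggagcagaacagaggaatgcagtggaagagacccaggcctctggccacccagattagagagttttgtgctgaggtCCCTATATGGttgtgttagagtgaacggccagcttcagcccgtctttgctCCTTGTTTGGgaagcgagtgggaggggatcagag
Smtn (chr11:3539293-3539542, minus strand): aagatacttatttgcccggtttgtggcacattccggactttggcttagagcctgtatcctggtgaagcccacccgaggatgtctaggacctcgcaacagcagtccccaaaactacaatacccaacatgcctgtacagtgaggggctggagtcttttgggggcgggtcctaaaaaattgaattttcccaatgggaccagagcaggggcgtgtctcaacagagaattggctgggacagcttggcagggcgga
Rgs5 (chr1:169655251-169655500, plus strand): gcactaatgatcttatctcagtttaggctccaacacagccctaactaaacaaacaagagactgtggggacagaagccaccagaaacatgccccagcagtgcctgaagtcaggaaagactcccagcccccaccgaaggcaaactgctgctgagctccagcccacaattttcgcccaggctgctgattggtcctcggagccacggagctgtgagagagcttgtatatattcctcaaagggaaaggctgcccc

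Tagln encodes transgelin, an actin-binding protein of smooth muscle that is also abundant in myofibroblasts. It had 44.3, 51.3, 44.3, 42.4 and 42.9 CPM in 1C-MIM 1 to 5 and 55.8, 43.7, 54.3, 46.5 and 66.1 CPM in Control 1 to 5. Control 5 was the highest library, and Control 2 and Control 4 lay within the 1C-MIM range. The difference of -0.24 on the log2 scale (SE 0.10) did not pass the test (edgeR adjusted p = 0.0955). It passed without Control 2 (-0.31, adjusted p = 0.0342) and with library totals as the only scaling (-0.31, adjusted p = 0.0361), but it was -0.15 without Control 5 (adjusted p = 0.232), -0.10 without Control 1 and Control 5, and -0.11 with each library's length trend removed (adjusted p = 0.453).

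Cnn1 encodes calponin 1, which binds actin and slows the actomyosin ATPase of smooth muscle. It was the scarcest of the genes, at 2.35, 4.09, 1.73, 1.97 and 1.88 CPM in 1C-MIM 1 to 5 and 2.91, 2.48, 3.77, 2.47 and 4.17 CPM in Control 1 to 5. Only 1C-MIM 2 lay above the lowest Control, and it came close to the highest. Its log2 fold change was -0.40 (SE 0.24, edgeR adjusted p = 0.239), and -0.67 without 1C-MIM 2 (adjusted p = 0.0287). Its 95% confidence interval ran from -0.91 to 0.11, and its counts were 52 to 124 a library.

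Smtn encodes smoothelin, a cytoskeletal protein found in contractile smooth muscle. It had 67.7, 71.7, 67.3, 63.1 and 67.9 CPM in 1C-MIM 1 to 5, against 79.5, 74.7, 75.0, 73.8 and 93.5 CPM in Control 1 to 5. Each 1C-MIM library lay below each Control library, a pattern found for 7.98% of all tested genes in this direction. The fall was small, -0.23 on the log2 scale (SE 0.07; edgeR adjusted p = 0.0306). Its call was lost without Control 5 (-0.16, adjusted p = 0.0567). It was also lost without 1C-MIM 3 (adjusted p = 0.0728), without 1C-MIM 4 (0.0948) and without 1C-MIM 5 (0.0551), and without Control 1 and Control 5 together it was -0.14 (adjusted p = 0.108). The 5 Smtn transcripts in the tables had nearly equal counts, 21711 to 22143 over all libraries, so smooth muscle and other forms of smoothelin were not told apart.

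Myh11 encodes the smooth muscle myosin heavy chain, the gene most closely tied to mature smooth muscle. It had 57.6, 96.0, 69.7, 64.1 and 56.0 CPM in 1C-MIM 1 to 5 and 64.0, 54.7, 58.2, 45.3 and 57.2 CPM in Control 1 to 5. Unlike its contractile partners it leaned upward in 1C-MIM, led by 1C-MIM 2, with overlapping groups. The log2 fold change of 0.30 (SE 0.14) did not pass the test (edgeR adjusted p = 0.14), and it was 0.15 without 1C-MIM 2 (adjusted p = 0.3). Within the contractile group, then, Acta2, Tagln and Cnn1 had negative fold changes that missed the threshold, Smtn fell, and Myh11 had a positive one that missed it.

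Rgs5 encodes a regulator of G-protein signalling that shortens signals from vasoconstrictor receptors and is among the most used pericyte markers. It had 53.3, 83.5, 71.1, 74.1 and 52.7 CPM in 1C-MIM 1 to 5, against 43.3, 47.8, 44.2, 43.6 and 21.7 CPM in Control 1 to 5. The groups did not overlap, which was so for 6.6% of all tested genes with 1C-MIM higher. The mean was 66.9 ± 13.5 CPM in 1C-MIM and 40.1 ± 10.5 CPM in Control (SD, n = 5 each), or 0.74 on the log2 scale (SE 0.20, 95% confidence interval 0.30 to 1.18, edgeR adjusted p = 0.0248). Leaving out Control 5 lowered the fold change to 0.59 and kept the call (adjusted p = 0.0129). The call was lost, at a similar size, without 1C-MIM 2 (0.65, adjusted p = 0.0637), without 1C-MIM 3 (0.72, 0.0516) and without 1C-MIM 4 (0.70, 0.0608), and with no filter on low counts (0.75, 0.0516). These 3 libraries also had the highest slopes of deviation on transcript length (0.0639 to 0.121), and Control 5, the lowest in Rgs5, had the lowest slope. With each library's length trend removed the log2 fold change was 0.84 (adjusted p = 0.0537).

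Cspg4 encodes the NG2 proteoglycan, a surface protein of pericytes and of some glial and progenitor cells. It had 11.3, 17.7, 14.4, 14.2 and 13.1 CPM in 1C-MIM 1 to 5, against 9.21, 11.9, 13.2, 9.87 and 9.59 CPM in Control 1 to 5. Every 1C-MIM library lay above the Control mean of 10.8 ± 1.73 CPM (SD, n = 5), but 1C-MIM 1 lay below Control 2 and Control 3, and 1C-MIM 5 just below Control 3. The log2 fold change was 0.39 (SE 0.13, edgeR adjusted p = 0.0404). Leaving out Control 1, 4 or 5 alone ended the call (log2 fold change 0.34 to 0.36, adjusted p = 0.0759 to 0.0887), as did leaving out replicate 2, 3 or 4 of 1C-MIM (0.30 to 0.40, adjusted p = 0.076 to 0.096). It was also lost with library totals as the only scaling (0.32, adjusted p = 0.111). With the length trend removed it was 0.16 (adjusted p = 0.28).

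Pdgfrb encodes the receptor through which PDGF-B holds pericytes at capillaries, and fibroblasts carry it too. It had 39.6, 53.7, 46.4, 45.1 and 45.6 CPM in 1C-MIM 1 to 5 and 26.8, 37.7, 48.5, 36.9 and 33.7 CPM in Control 1 to 5. Control 3 lay among the 1C-MIM libraries and the other Controls below all of them. The log2 fold change of 0.33 (SE 0.13) missed the threshold (edgeR adjusted p = 0.0868), and passed without Control 3 (0.45, adjusted p = 0.0169). Without Control 1 and Control 5 it was 0.17 (adjusted p = 0.318). Removing the length trend gave 0.19 (adjusted p = 0.336).

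Mcam encodes CD146, an adhesion molecule of mural and endothelial cells. It had 30.2, 31.3, 33.4, 29.8 and 31.1 CPM in 1C-MIM 1 to 5 and 35.7, 28.9, 29.7, 27.3 and 31.1 CPM in Control 1 to 5. The groups covered each other, with the widest reach in Control. The log2 fold change was 0.03 (SE 0.07, 95% confidence interval -0.12 to 0.18, edgeR adjusted p = 0.786). With library totals as the only scaling, which moved the median of all genes by -0.075, it was -0.045, and without Control 4 it was -0.0075.

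The order of levels among the genes was read from the deposited TPM, which is scaled for transcript length. Over all libraries Acta2 (31.5 TPM), Tagln (30.7) and Rgs5 (29.7) led and lay within each other's spread, followed by Smtn (21.4). Mcam (10.6), Myh11 (9.38) and Pdgfrb (7.63) formed a middle group, and Cspg4 (1.55) and Cnn1 (1.39) were the lowest. In 1C-MIM, Rgs5 had the highest mean (37.4 ± 9.81 TPM; SD, n = 5) ahead of Acta2 (29.1 ± 3.77) and Tagln (28.5 ± 3.81). In Control the means were 22.1 ± 6.45 TPM for Rgs5, 33.9 ± 7.04 for Acta2 and 32.9 ± 4.24 for Tagln (SD, n = 5).

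The counted transcripts of the members differ in length, and fold changes over all genes varied with length. The genes with transcripts of 1586 to 3389 bases were Tagln, Rgs5, Cnn1, Acta2, Mcam and Smtn, of which Tagln, Cnn1, Acta2 and Smtn had negative log2 fold changes (-0.40 to -0.23), Mcam was at 0.03 and Rgs5 at 0.74. Pdgfrb (5413 bases), Myh11 (6632) and Cspg4 (8050) had values of 0.33, 0.30 and 0.39. Medians over all genes were -0.21 (log2) in the decile of shortest transcripts and 0.24 in that of the longest. Rgs5, with 1809 bases, lay in a decile whose median was -0.09, and Smtn in one whose median was 0.06. With each library's length trend removed, Smtn stayed lower (-0.27, edgeR adjusted p = 0.0184), and 0 members were higher (1 of them, Rgs5, at an unadjusted p under 0.05). In that fit 6.95% of all genes were higher by the same threshold and 9.31% lower, and 5 of the 9 members stayed above 0, beside 50.9% of all genes. Myh11 and Pdgfrb then had values of 0.11 and 0.19. DESeq2 without that removal called 2 members higher and 1 lower.

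**Figure D2:**
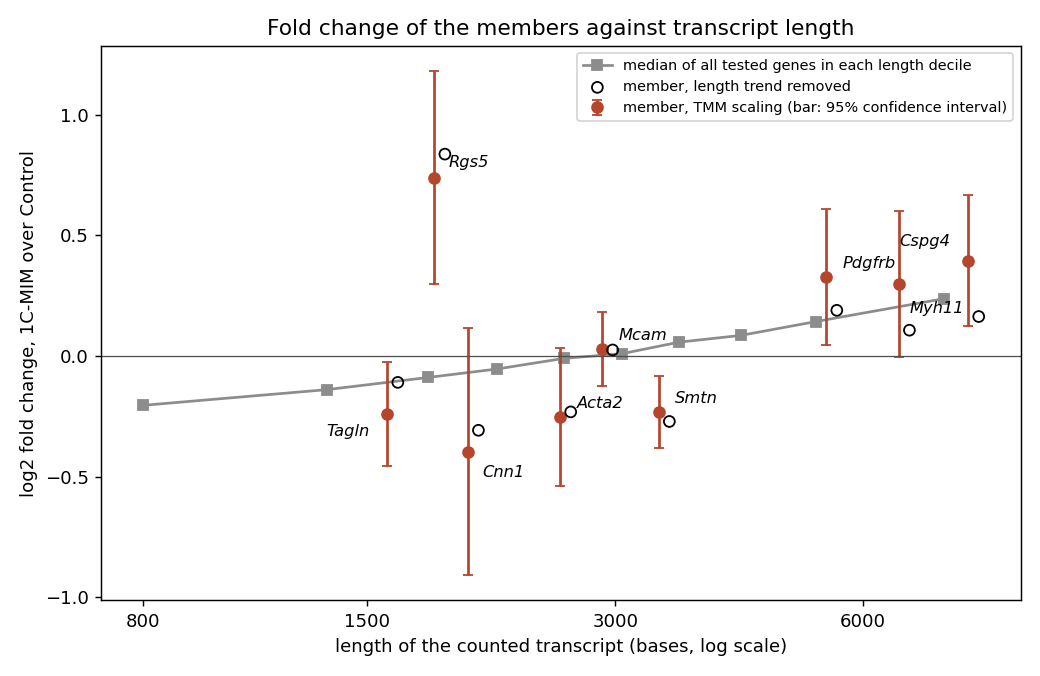
Log2 fold change of each mural gene (1C-MIM over Control) against the length of its counted transcript on a log scale, with 95% confidence intervals. Open circles are the same genes with the length trend removed, and grey squares are the medians of all tested genes by length decile. The 3 longest members lie near or above the grey line at 0.30 to 0.39, and Rgs5, at 0.74, lies far above it.

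Within the groups, Acta2, Tagln and Smtn varied together from animal to animal. The Pearson correlation of log2 CPM, taken as deviations from the group mean over 10 libraries, was 0.873 between Acta2 and Tagln, 0.864 between Tagln and Smtn, 0.787 between Tagln and Cnn1 and 0.742 between Acta2 and Smtn. Acta2 and Cnn1 stood at 0.524. Myh11 was nearest to Cnn1 (0.694), with 0.579 for Tagln, 0.522 for Acta2 and 0.374 for Smtn. Of the pericyte markers, Pdgfrb and Cspg4 varied together (0.864), Rgs5 was closer to Cspg4 (0.595) than to Pdgfrb (0.342), and Mcam was closest to Acta2 (0.775). Rgs5 and Smtn ran opposite to each other (-0.715), but this rested on Control 5, without which the value was 0.051. These values describe 10 libraries that share their scaling and carry no test.

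**Figure D3:**
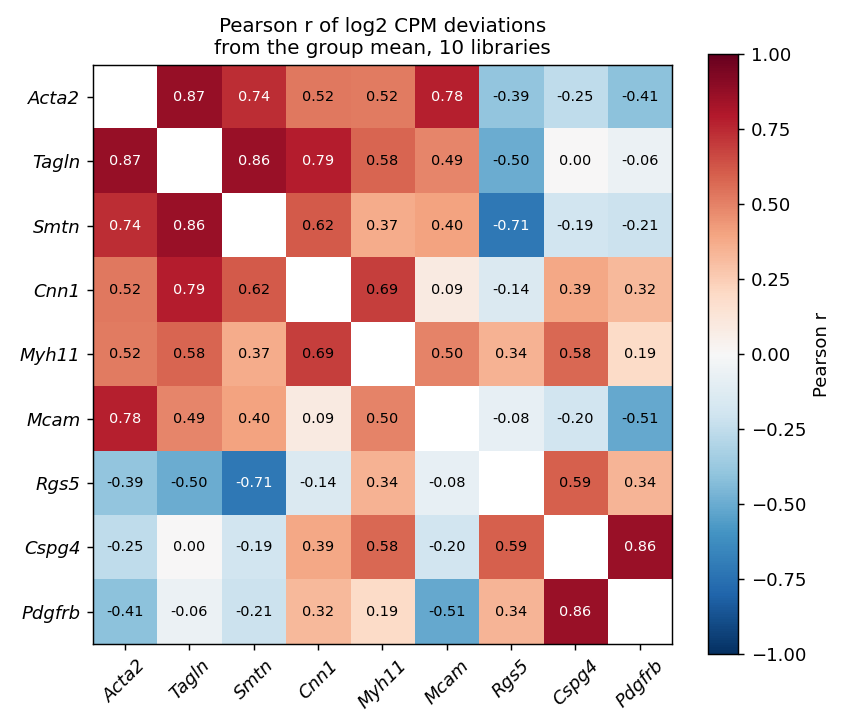
Pearson correlation between pairs of mural genes, from log2 CPM deviations from the group mean over 10 libraries (red positive, blue negative). A block of Acta2, Tagln, Smtn and Cnn1 (0.52 to 0.87) and the pair Pdgfrb and Cspg4 (0.86) stand out, while Rgs5 is negative with Acta2, Tagln and Smtn.

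Among 9654 other genes with a mean log2 CPM of at least 2, those most like Acta2 in this measure were Cnn3, a calponin (0.927), Myh8, the perinatal myosin heavy chain (0.925), Klf2, a flow-responsive endothelial factor (0.924), S100a10 (0.922) and Csrp1, a LIM protein of smooth muscle (0.918). Tagln ranked 30 of these 9654, Mcam 149, Smtn 199 and Myh11 863. The genes most like Rgs5 were Xrn1, the cytoplasmic 5' to 3' exoribonuclease (0.997), Itsn2 (0.989), Gapvd1 (0.988), Strn (0.988) and Pds5a (0.987), whose counted transcripts have 3942 to 6070 bases. Among the members, Cspg4 came nearest to Rgs5 but ranked only 2262, and Pdgfrb ranked 3405. Without Control 5 the correlations of Rgs5 with its 5 nearest genes were 0.957 to 0.993.

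A further 16 genes of smooth muscle contraction and tone extended the view. Of these 3 were called higher, 0 lower (0 also at an unadjusted p under 0.05 and by DESeq2) and 13 did not pass, beside 9.78% higher and 11.8% lower over all genes. Their median log2 fold change was 0.22, beside 0.0009 for all genes. Gucy1a3 encodes the alpha subunit of soluble guanylate cyclase, the receptor through which nitric oxide relaxes vessels. It had 12.7 ± 2.09 CPM in 1C-MIM and 8.53 ± 1.51 CPM in Control (SD, n = 5 each; log2 fold change 0.57, SE 0.13, edgeR adjusted p = 0.0107). Removing the length trend left 0.47 (adjusted p = 0.0163). Aoc3, a surface amine oxidase of smooth muscle and fat cells, had 34.6 ± 4.61 CPM in 1C-MIM and 26.1 ± 3.92 CPM in Control (0.41, adjusted p = 0.0195). Mylk, the myosin light chain kinase that starts contraction, had 32.0 ± 3.62 CPM in 1C-MIM and 25.4 ± 2.99 CPM in Control (0.33, adjusted p = 0.0216). The calls of Aoc3 and Mylk ended with the length trend removed (adjusted p = 0.0636 and 0.169), and another gene of the list gained one. In that fit 2 of the 16 were higher and 0 lower, and the list's median was 0.15. The median transcript of the list had 3988 bases, beside 2817 over all tested genes. Without that removal, the count called higher was 2 to 4 when single libraries were left out.

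Of 4 genes of the SRF pathway, Myocd had 68 counts over all libraries and was not tested. For the other 3 the count was 0 higher and 0 lower, also at an unadjusted p under 0.05 and by DESeq2. Over all genes the test called 9.78% higher and 11.8% lower. Srf had 103.2 ± 2.86 CPM in 1C-MIM and 106.0 ± 5.11 CPM in Control (log2 fold change -0.04, SE 0.05), and the myocardin-related factors Mkl1 and Mkl2 were at 0.05 and 0.19.

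In 16 further pericyte and mural genes, the test called 1 higher and 1 lower and left 14 uncalled, beside 9.78% higher and 11.8% lower over all genes, and the median log2 fold change was 0.16. At an unadjusted p under 0.05 there were 5 higher and 2 lower, and DESeq2 called 4 higher and 1 lower. Rgs4, a relative of Rgs5, had 8.81 to 11.1 CPM in 1C-MIM and 7.40 to 8.18 CPM in Control without overlap (0.33, SE 0.08, edgeR adjusted p = 0.0127), and kept its call with the length trend removed (0.32, adjusted p = 0.0125). Cd248, endosialin of stromal fibroblasts and pericytes, had 12.4 ± 2.35 CPM in 1C-MIM and 17.7 ± 2.79 CPM in Control (SD, n = 5 each; -0.52, SE 0.14, adjusted p = 0.0179). Abcc9, the sulphonylurea receptor subunit of potassium channels in mural cells and muscle fibres, was at 0.43 (adjusted p = 0.0524). Without Control 1 or without 1C-MIM 1 the number called higher was 3, and without Control 3, without 1C-MIM 5 or without both Control 1 and Control 5 it was 2. The number called lower was 2 without Control 2 or 1C-MIM 2, and 0 without 1C-MIM 4 or without Control 1 and Control 5 together.

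For the PDGF ligands and receptors beside Pdgfrb, 0 of 5 were called in either direction (1 higher at an unadjusted p under 0.05, and 1 higher by DESeq2). Over all genes 21.6% were called. Pdgfb, the ligand that endothelial cells send to pericytes, had 28.3 ± 1.17 CPM in 1C-MIM and 30.8 ± 2.84 CPM in Control (SD, n = 5 each; -0.12, SE 0.07, edgeR adjusted p = 0.198). Pdgfd, another ligand of this receptor, was at 0.47 (SE 0.16, adjusted p = 0.0557) and passed with the length trend removed (0.57, adjusted p = 0.0398). Pdgfa was at -0.11.

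**Figure D4:**
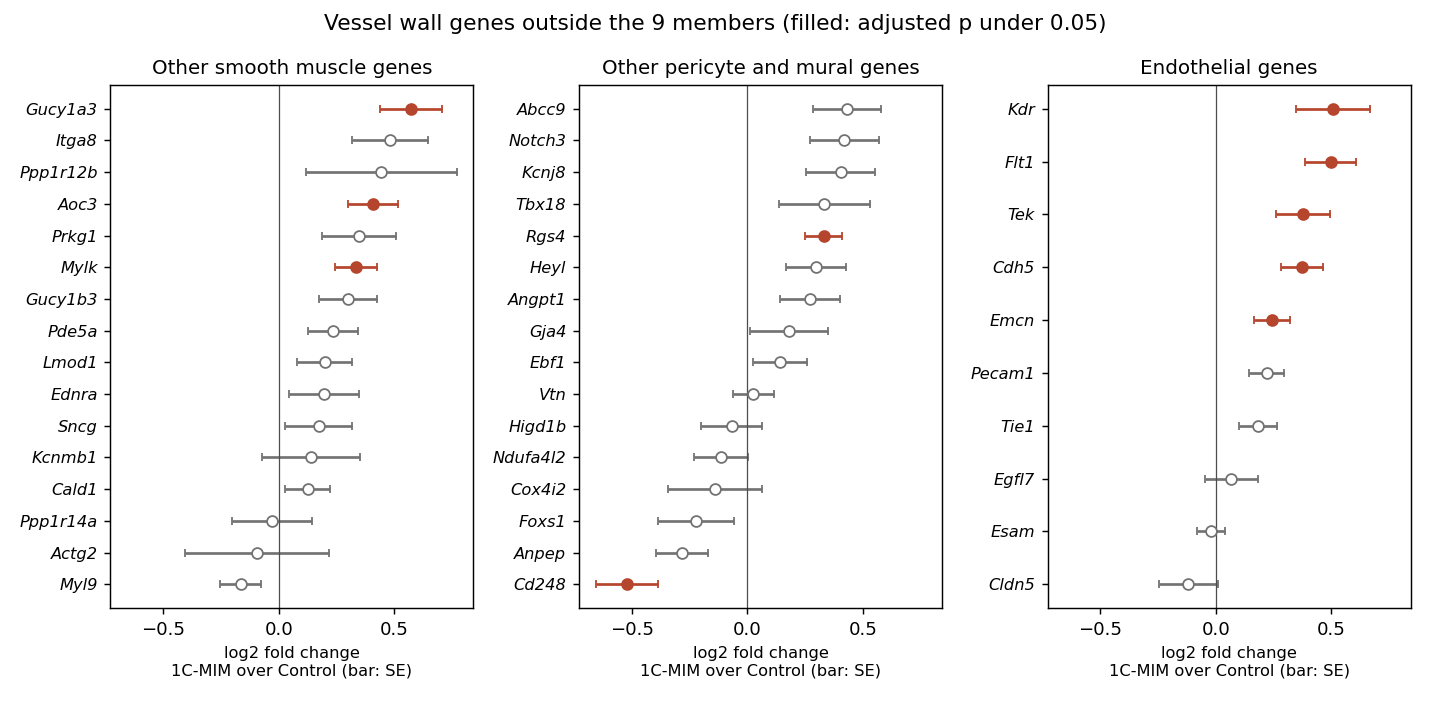
Log2 fold change (1C-MIM over Control, bars ± SE) of 16 other smooth muscle genes, 16 other pericyte and mural genes and 10 endothelial genes. Filled points passed an adjusted p under 0.05. Positive values prevail in the smooth muscle panel (13 of 16) and the endothelial panel (8 of 10), and Cd248 is the called gene on the negative side.

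Paralogs of the members were also counted. Of 18 tested relatives, 3 were called higher and 5 lower, beside 9.78% higher and 11.8% lower over all genes. Tagln2, the transgelin of non-muscle cells, had 19.5 ± 1.31 CPM in 1C-MIM and 27.2 ± 3.58 CPM in Control (SD, n = 5 each; -0.48, SE 0.09, edgeR adjusted p = 0.00332). Smtnl2, a smoothelin-like gene, had 299 to 357 CPM in 1C-MIM and 384 to 441 CPM in Control (-0.31, SE 0.06, adjusted p = 0.00448). Rgs2, which also restrains vasoconstrictor signals, had 3.63 to 4.67 CPM in 1C-MIM and 5.34 to 7.34 CPM in Control (-0.58, SE 0.12, adjusted p = 0.00502). Of the Rgs genes named here, Rgs4 and Rgs5 were thus called higher and Rgs2 lower. With the length trend removed, Rgs4 and Rgs2 kept their calls (edgeR adjusted p = 0.0125 and 0.0033) and Rgs5 did not (0.0537). Actc1, cardiac alpha-actin, chosen after its value was seen, fell by 1.48 on the log2 scale (SE 0.27, adjusted p = 0.00606), and Acta1 was at 0.01.

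Genes of other cell types of the muscle were counted in the same way, and their part in the mural values was not tested. Of 10 endothelial genes 5 were higher and 0 lower (0 also at an unadjusted p under 0.05 and by DESeq2), beside 9.78% higher and 11.8% lower over all genes. Their summed level was 344 to 392 CPM in 1C-MIM and 253 to 341 CPM in Control. Flt1, a VEGF receptor, was at 0.50 (SE 0.11, edgeR adjusted p = 0.0086), the adherens junction cadherin Cdh5 at 0.37 (adjusted p = 0.0123) and the angiopoietin receptor Tek at 0.38 (adjusted p = 0.0338). The endothelial count was 5 without Control 3 or 1C-MIM 1 and fell to 2 or 3 without any other single library. It was 2 with library totals and 3 with the length trend removed.

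Fibroblast genes went the other way, with 7 of 11 lower and 0 higher (0 also at an unadjusted p under 0.05 and by DESeq2), among them Col3a1 (-1.56), Thy1 (-0.69) and Lum (-0.46). Their summed level was 1941 to 2823 CPM in 1C-MIM and 2547 to 3315 CPM in Control. With the length trend removed, 5 of the 11 were lower and 0 higher, beside 9.31% lower and 6.95% higher over all genes. Without that removal 9.78% of all genes were called higher and 11.8% lower, shares that stand beside the 7 of 11 and the counts that follow. Of 8 myofibroblast matrix genes 3 were lower, Timp1 (-2.78), Postn (-1.41) and Col1a2 (-0.83), at a summed 198 to 415 CPM in 1C-MIM and 328 to 526 CPM in Control. Macrophage genes were lower in 8 of 10, led by Ctss (-1.74), Cd68 (-1.33) and Lyz2 (-1.33), with a sum of 162 to 233 CPM in 1C-MIM and 282.8 to 542.0 CPM in Control. Of 9 Schwann cell genes 1 was higher, a share close to the 9.78% over all genes. It was Mbp (0.35, edgeR adjusted p = 0.0238), while Prx at 0.29 did not pass (adjusted p = 0.0599), and the sum was 104 to 124 CPM in 1C-MIM and 89.5 to 110 CPM in Control. In skeletal fibres 4 of 10 genes were higher, among them Actn3 (0.45), Myh1 (0.42) and Atp2a1 (0.27). The other 6 did not pass, 5 of the 10 were below 0, and the list's median was -0.00093. At an unadjusted p under 0.05, 2 were lower, and DESeq2 called 1 lower.

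The deposited names number the animals in a series starting with 2 and a series starting with 3, present in both groups. Among the 3 1C-MIM and 3 Control animals of the series starting with 2, the log2 difference was 0.60 for Rgs5, 0.33 for Cspg4 and -0.15 for Smtn. Among the 2 1C-MIM and 2 Control animals of the other series it was 1.02, 0.48 and -0.34. All 9 genes kept the same sign in both series, with Mcam at only 0.016 and 0.063. The series together make up the whole comparison, and the share of all genes that kept their sign was not counted. The labels do not say what the series stand for.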

How the data were processed

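Total RNA from quadriceps of 10 mice was sequenced, with RNA and libraries made by Active Motif, per the labels. The submitters' processing notes list build GRCm39 and bedtools 2.30.0, DESeq2 1.28.0, featureCounts, Picard 2.27.4, Salmon 1.5.2, SAMtools 1.15.1, STAR, StringTie 2.2.1, Subread 2.0.1 and Trim Galore 0.6.7, with no role or order. The deposited values are whole-number counts, FPKM and TPM for 33984 RefSeq transcripts, per the file headers. Isoforms of a symbol often hold nearly equal counts, so the transcript with the largest total represented a symbol. The deposited counts were tested. The deposited FPKM served to recover transcript lengths, and the deposited TPM to order levels. Strandedness and the authors' filters: not given in the sources used here.

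Low counts were removed with filterByExpr, TMM factors were computed (edgeR 4.0.16, R 4.3.3), and the groups were compared with the robust quasi-likelihood F test, adjusted by Benjamini-Hochberg over 13880 genes. Log2 CPM used a prior count of 2. Alternatives were other scalings and filters, DESeq2 1.42.0, limma-voom (limma 3.58.1), blocks for replicate number and animal series, summed transcripts, removal of each library's length trend (natural spline with 3 inner knots, as offsets) and omitted libraries. Alternatives for the other gene lists were added after seeing the data. The fit was tested on simulated data. The members, lists and tests were chosen with earlier results of these data known. The genes named are the members, the 3 of each other list with the smallest p, and the 5 most like Acta2 and Rgs5 without predicted genes, unless said otherwise. One gene that this rule names is not reported here. No label says which cage, litter or library batch an animal came from. Water was given at 150 mL per cage of up to 5 mice in both groups, so animals that shared a cage may not be independent. Here n counts animals, numbered in the deposited names. The counts kept per animal, with 1 transcript per symbol, were 28521254 to 31771296, which limits precision for low genes.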

Additional observations from a re-analysis of the deposited data

Results flagged for a closer look

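A lone library was sought for each mural gene in each group of 5, which gives 18 groups, by the gap of the highest or lowest library to its neighbour as a share of the group's range. Chance alone marks about 1 in 20 groups, and 4 of the 18 were marked. Rgs5 in Control 5 (21.7 CPM) lay below the other Controls (43.3 to 47.8 CPM) by 0.827 of the range. Smtn in Control 5 (93.5 CPM) lay above the others (73.8 to 79.5 CPM) by 0.7115 of the range, just past the critical value of 0.71. Tagln in 1C-MIM 2 (51.3 CPM) lay above the other 1C-MIM libraries (42.4 to 44.3 CPM) by 0.785 of the range, and Cnn1 in 1C-MIM 2 (4.09 CPM) above the others (1.73 to 2.35 CPM) by 0.7365. Without Control 5 the log2 fold change was 0.59 for Rgs5 and -0.16 for Smtn, and without 1C-MIM 2 it was -0.67 for Cnn1.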

How the results depend on the processing

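Calls over all genes were 1357 higher and 1642 lower. They came to 606 and 2896 with library totals only, 832 and 976 without Control 1 and Control 5, and 739 to 1558 higher and 941 to 1885 lower when single libraries were left out. The mural genes called higher numbered 1 with library totals only, 1 with no filter, 1 without Control 1 and Control 5, and 0 with the length trend removed, against 2 as reported. Those called lower numbered 2 with library totals only and 0 without Control 1 and Control 5, against 1 as reported. Leaving out single libraries gave 0 to 3 higher and 0 to 3 lower. Mcam, at 0.03, came to -0.045 with library totals, which moved the median of all genes by -0.075, and to -0.0075 without Control 4 (-0.0075 to 0.0919 over omitted single libraries). The labels do not say that a replicate number marks shared animals or batches, so the numbers were not taken as pairs. Deviations of same-numbered libraries correlated at -0.075 to 0.387, with 3 of 5 pairs over 0.1. Whether such libraries shared a batch was not tested. With replicate number as a block, 1932 genes were higher and 1965 lower, and 3 mural genes were higher (Pdgfrb added at 0.34, edgeR adjusted p = 0.0154) and 1 lower. DESeq2 and limma-voom each gave 2 mural genes higher and 1 lower.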

Other observations

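Ratios of counts within a library do not depend on scaling, and they were formed after the values were seen, so they carry no test. The ratio of Rgs5 to Acta2 was 0.736, 0.991, 0.944, 1.10 and 0.713 in 1C-MIM 1 to 5 and 0.383, 0.725, 0.532, 0.575 and 0.202 in Control 1 to 5. Control 2 lay above 1C-MIM 5 and was the only Control to reach the 1C-MIM range. The ratio of Myh11 to Acta2, whose counted transcripts have 6632 and 2572 bases, was 0.913 ± 0.151 in 1C-MIM and 0.645 ± 0.121 in Control (SD, n = 5 each), and the groups overlapped. The ratio of Tagln to Acta2 was 0.603 ± 0.0191 in 1C-MIM and 0.608 ± 0.0677 in Control (SD, n = 5 each).

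Within the 1C-MIM group, 1C-MIM 2 was the highest library for 8 of the 9 mural genes (all but Mcam) and for 11 of the 16 other smooth muscle genes. For the 16 other pericyte and mural genes it was highest in 6. It was also highest for 7 of 8 myofibroblast matrix genes, 6 of 11 fibroblast genes and 5 of 10 endothelial genes, and lowest for 8 of 10 skeletal fibre genes. The share of all tested genes for which it was highest was not counted. 1C-MIM 2 also had the highest slope of deviation on transcript length (0.121). Among Controls no library led in this way for the members, with Control 1 and Control 5 highest for 3 each, Control 3 for 2 and Control 2 for 1.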
